A study of Mus musculus with 9 samples.

Results

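The genes described here are 9 ubiquitin ligases of the HECT class, Hectd3, Hectd2, Huwe1, Ube3c, Nedd4, Nedd4l, Itch, Wwp1 and Wwp2. They were found as the rows of a deposited count table that carry one of these symbols, alone or merged with another symbol, and they make up 9 of 30232 gene rows. The set was chosen by the count level of Hectd3, already known to be lower in Gzf1-knockout libraries of this same table, so its difference between genotypes is given below as a description, with no test. The table holds 9 RNA libraries of mouse embryonic stem cells prepared by MARS-seq2.0, which counts 3′ ends of polyadenylated transcripts. Of the 5 libraries with the genotype Gzf1 knockout, 2 are from the cell line RGM (sequencing run2) and 3 from the line V6.5 (run1). Of the 4 wild-type libraries, 2 are RGM (run2), 1 is V6.5 (run1) and 1 is a line called Cas9-GFP (run1). All were grown on irradiated embryonic fibroblast feeders in serum with LIF, and the feeders were depleted before harvest. The labels do not state which part of Gzf1 was removed, nor whether libraries of a line come from separate clones or cultures. The comparison of genotypes asks what changes without Gzf1, a zinc finger protein that binds DNA.

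HECT ligases attach ubiquitin to proteins in a pair of steps. An E1 enzyme activates ubiquitin, an E2 enzyme carries it, and the HECT ligase takes it onto a cysteine of its own catalytic domain before passing it to the substrate. The part in front of that domain selects substrates and sorts the class into groups. Nedd4, Nedd4l, Itch, Wwp1 and Wwp2 belong to the Nedd4 group, whose WW domains bind proline-rich motifs in membrane proteins and adaptors. Huwe1 is a very large ligase of nuclear and cytosolic proteins, among them p53, Mcl1 and N-Myc, Ube3c extends ubiquitin chains at the proteasome, and Hectd2 and Hectd3 lack WW domains. Hectd3 has been reported to act on signalling and cell death proteins such as Malt1, Traf3 and Casp8.

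Library totals ran from 2568489 to 7072697 counts, with the 4 RGM libraries at the low end, and a count of 3, taken as the floor, was worth 0.424 to 1.17 CPM, the counts of a gene scaled to a common library total. Gzf1 itself was at 5.45 and 14.2 CPM in RGM knockout and 1.66, 9.40 and 5.24 CPM in V6.5 knockout libraries, against 28.6 and 30.0 CPM in RGM, 8.11 CPM in V6.5 and 18.7 CPM in Cas9-GFP wild-type libraries. Its difference (log2 fold change -1.45, SE 0.42, edgeR adjusted p = 0.9998) did not pass the threshold, an adjusted p of 0.05, in edgeR or DESeq2 but did in limma voom, and knockout replicates 2 and 4 lay above wild-type replicate 3. A 3′ count outside the edited part would not report the edit. The 12 stem cell markers summed to 6009 to 7832 CPM in knockout and 6428 to 7657 CPM in wild-type libraries, none of them at 0. The 15 markers of feeder fibroblasts summed to 1070 to 2023 CPM in RGM knockout and 608 to 983 CPM in V6.5 knockout libraries, against 1347 to 1480 CPM in RGM and 540 to 797 CPM in run1 wild-type libraries. Of these, only Lum was at 0 anywhere, in wild-type replicate 3.

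Hectd3 (ENSMUSG00000046861.9) lies on the plus strand of chromosome 4, at 116995317 to 117005277 in GRCm38, the build also called mm10. An antisense transcript, 1700021J08Rik, is annotated inside it, and no other annotated gene covers its 3′ end. The 250 bases before its RefSeq start site (GRCm38.p6, chr4:116995084-116995333, plus strand) are shown because Hectd3 is the member whose level followed the Gzf1 genotype. They are set beside those of Wwp2 (chr8:107436120-107436369, plus strand) and Ube3c (chr5:29568992-29569241, plus strand), members whose difference between genotypes did not pass. Capitals mark the letters TGCGCG, with which the published Gzf1 binding sequence begins, read on either strand.
Hectd3: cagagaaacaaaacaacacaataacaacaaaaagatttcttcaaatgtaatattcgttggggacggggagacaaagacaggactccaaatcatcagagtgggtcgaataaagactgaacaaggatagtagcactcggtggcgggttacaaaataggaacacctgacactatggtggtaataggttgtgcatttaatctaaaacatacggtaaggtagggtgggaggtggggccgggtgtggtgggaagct
Wwp2: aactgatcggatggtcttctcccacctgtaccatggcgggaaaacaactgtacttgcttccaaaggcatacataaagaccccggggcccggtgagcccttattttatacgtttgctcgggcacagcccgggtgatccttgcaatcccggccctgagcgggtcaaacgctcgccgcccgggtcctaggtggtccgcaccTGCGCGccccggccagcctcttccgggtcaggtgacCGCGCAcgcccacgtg
Ube3c: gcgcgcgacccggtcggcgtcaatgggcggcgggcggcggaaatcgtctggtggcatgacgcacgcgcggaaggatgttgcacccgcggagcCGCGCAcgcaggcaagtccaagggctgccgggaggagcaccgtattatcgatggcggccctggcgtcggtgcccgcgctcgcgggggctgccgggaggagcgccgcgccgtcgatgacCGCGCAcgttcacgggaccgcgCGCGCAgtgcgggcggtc

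TGCGCG does not occur in the Hectd3 window, while Wwp2 has it 2 times and Ube3c 3 times. It is likewise absent from the Huwe1 and Nedd4 windows, genes whose difference between genotypes did not pass either. Whether these letters bear on the level of Hectd3 was not tested. Of all 32851 RefSeq promoter windows of this length, 10.1% hold it. TGCCGC, the core of the Zfp57 binding motif, was searched likewise, is absent from the Hectd3, Wwp2 and Ube3c windows and occurs in 8.68% of all windows. In the Nedd4 windows it was found 1 time. The Hectd3 window has 7 CpG dinucleotides and 44.4% G and C, the Wwp2 window 22 and 62.8%, and the Ube3c window 46 and 74.8%, against medians of 6 and 52.4% over all windows. These are matches of letters in one window and say nothing of binding. The RefSeq promoter table was matched for 5 of the 9 genes, the other 2 with windows being Huwe1 and Nedd4. Hectd2, Itch, Wwp1 and Nedd4l are named only.

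Hectd3 was low in every knockout library. It was measured at 5.13 and 4.34 CPM in RGM knockout and 5.25, 2.51 and 4.75 CPM in V6.5 knockout libraries, against 25.6 and 26.8 CPM in RGM, 23.4 CPM in V6.5 and 25.4 CPM in Cas9-GFP wild-type libraries. The highest knockout library was far below the lowest wild-type library. The lines overlapped within the knockout, while in the wild type both RGM libraries were slightly above the run1 libraries. Raw counts behind these levels were 11 to 38 in knockout and 68 to 170 in wild-type libraries, all above the floor of 3. The mean was 4.40 ± 1.11 CPM in knockout (SD, n = 5) and 25.3 ± 1.45 CPM in wild-type libraries (SD, n = 4), so that 17.4% of the wild-type level was left. The fitted log2 fold change was -2.49 over all libraries, -2.46 within RGM and -2.52 within run1. Of 12645 tested rows 1 had a lower log2 fold change than Hectd3.

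Among the knockout libraries, replicate 3 had the least Gzf1, at 1.66 CPM, and the most Hectd3, at 5.25 CPM. Replicates 2 and 4 had the most Gzf1, at 14.2 and 9.40 CPM, and the least Hectd3, at 4.34 and 2.51 CPM. These 2 replicates held 11 and 12 counts of Hectd3, and they differ in line and run. With 5 libraries no correlation is given, and whether Hectd3 follows the level of Gzf1 was not tested. Wild-type replicate 3, with 8.11 CPM of Gzf1, below knockout replicates 2 and 4, had 23.4 CPM of Hectd3. In these bulk libraries fewer cells with the transcript and less of it per cell cannot be told apart.

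**Figure D1:**
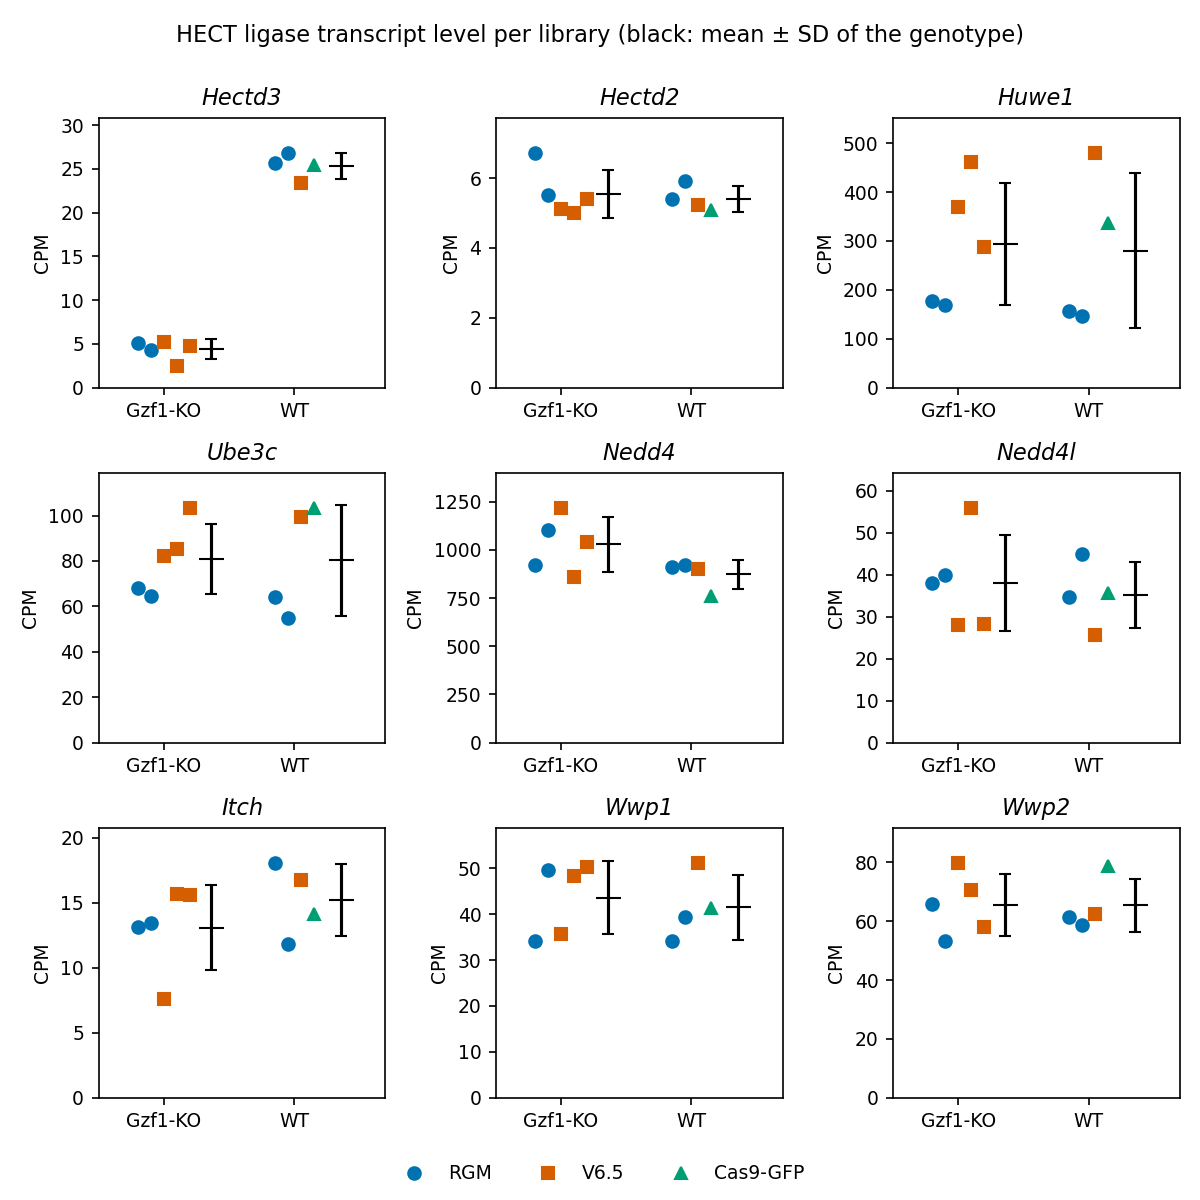
Level of each of the 9 HECT ligases in CPM (vertical axis, from 0) in the 5 Gzf1-KO and 4 WT libraries; symbols give the cell line, and the black bar the mean ± SD of the genotype. Hectd3 is at 2.51 to 5.25 CPM in Gzf1-KO and 23.4 to 26.8 CPM in WT libraries, Huwe1 and Ube3c are lower in the RGM libraries of either genotype, and the other 6 overlap between genotypes and lines.

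Among the other 8 members 0 passed the threshold between genotypes in edgeR, and 0 had an unadjusted p under 0.05. DESeq2 and limma voom also called 0 of them. Of all tested rows 0.0316% were called in edgeR, so that 0 of 8 is near the background. The median log2 fold change of the other 8 was 0.03, against 0.01 for all tested rows, and all 8 had an adjusted p of 0.9998. Knockout and wild-type CPM ranges overlapped for all 8, and did not overlap for 0.443% of all tested rows. None of the 8 passed 1 in absolute log2 fold change, which 0.498% of all tested rows did.

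Within the Nedd4 group the values lay on both sides of 0. Nedd4, the founding member, had 1029 ± 143 CPM in knockout (SD, n = 5) and 873 ± 76.3 CPM in wild-type libraries (SD, n = 4), a log2 fold change of 0.24 with a 95% interval of -0.03 to 0.52. Nedd4l, best known for removing the epithelial sodium channel from the cell surface, had 38.0 ± 11.4 CPM in knockout and 35.3 ± 7.89 CPM in wild-type libraries (0.15, interval -0.33 to 0.62). Itch, which restrains T cell activation in the mouse, had 13.1 ± 3.28 CPM in knockout and 15.2 ± 2.77 CPM in wild-type libraries (-0.23, interval -0.76 to 0.29). It was the lowest log2 fold change after Hectd3 among the 9. Its knockout libraries ran from 7.60 CPM in replicate 3 to 15.7 CPM in replicate 4, against 11.8 to 18.1 CPM in wild-type libraries, so the groups overlapped. Wwp1 had 43.6 ± 7.97 CPM in knockout and 41.6 ± 7.11 CPM in wild-type libraries (0.05, interval -0.31 to 0.41). Wwp2, reported in human stem cells to act on the pluripotency factor Oct4, had 65.6 ± 10.5 CPM in knockout and 65.4 ± 9.06 CPM in wild-type libraries (-0.02, interval -0.32 to 0.29).

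The members outside the Nedd4 group also overlapped between genotypes. Hectd2, the member most like Hectd3 in name, had 5.56 ± 0.69 CPM in knockout and 5.41 ± 0.36 CPM in wild-type libraries (log2 fold change 0.06, interval -0.49 to 0.60). Its 9 libraries held 14 to 38 counts, a depth like that of Hectd3 in the knockout. Huwe1 had 293 ± 125 CPM in knockout and 280 ± 159 CPM in wild-type libraries (0.01, interval -0.32 to 0.34), and Ube3c had 80.8 ± 15.4 and 80.4 ± 24.4 CPM in knockout and wild-type libraries (-0.03, interval -0.31 to 0.26). The wide spread of both within a genotype goes with the cell line, as described below. The Huwe1 row is merged with Mir3113, the Itch row with AK080189 and the Ube3c row with BC050184, so counts of these symbols cannot be separated. Antisense transcripts are annotated at the 3′ ends of Hectd2 (Hectd2os) and Wwp1 (Gm12353), and without a stated strand their reads cannot be told apart.

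Genotype labels were also exchanged among the libraries of a run in all 60 ways, an exact permutation test (two-sided) that cannot go below p = 0.0167. It gave an unadjusted p = 0.133 for Nedd4, the lowest of the 8, and 0.983 for Huwe1, the highest. The difference of the knockout effect between RGM and run1 was -0.31 to 0.33 on the log2 scale over the 9 members, each with adjusted p = 0.99996 for the 8 that were tested. Intervals of this difference were wide, down to -1.31 for Nedd4l and up to 1.28 for Hectd2.

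The rest of the HECT class was measured as a background to these members. Of 18 further HECT ligases, 16 had a tested row, Hecw1 was below the low-count filter and Hectd4 was not analysed here. Of the 16, 0 passed between genotypes, near the same background, in edgeR, DESeq2 or limma voom, and 0 had an unadjusted p under 0.05 in edgeR. Their median log2 fold change was -0.03, against 0.01 for all tested rows, and they ran from -0.50 for Hecw2 to 0.37 for G2e3. Across the 24 tested HECT ligases other than Hectd3, the lowest bound of any 95% interval was -1.10, that of Herc6. Each interval describes its own gene, so the log2 fold change of Hectd3, -2.49, is set beside them only as a description. The difference between Hectd3 and the others was not tested, because Hectd3 was chosen for its fall.

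**Figure D2:**
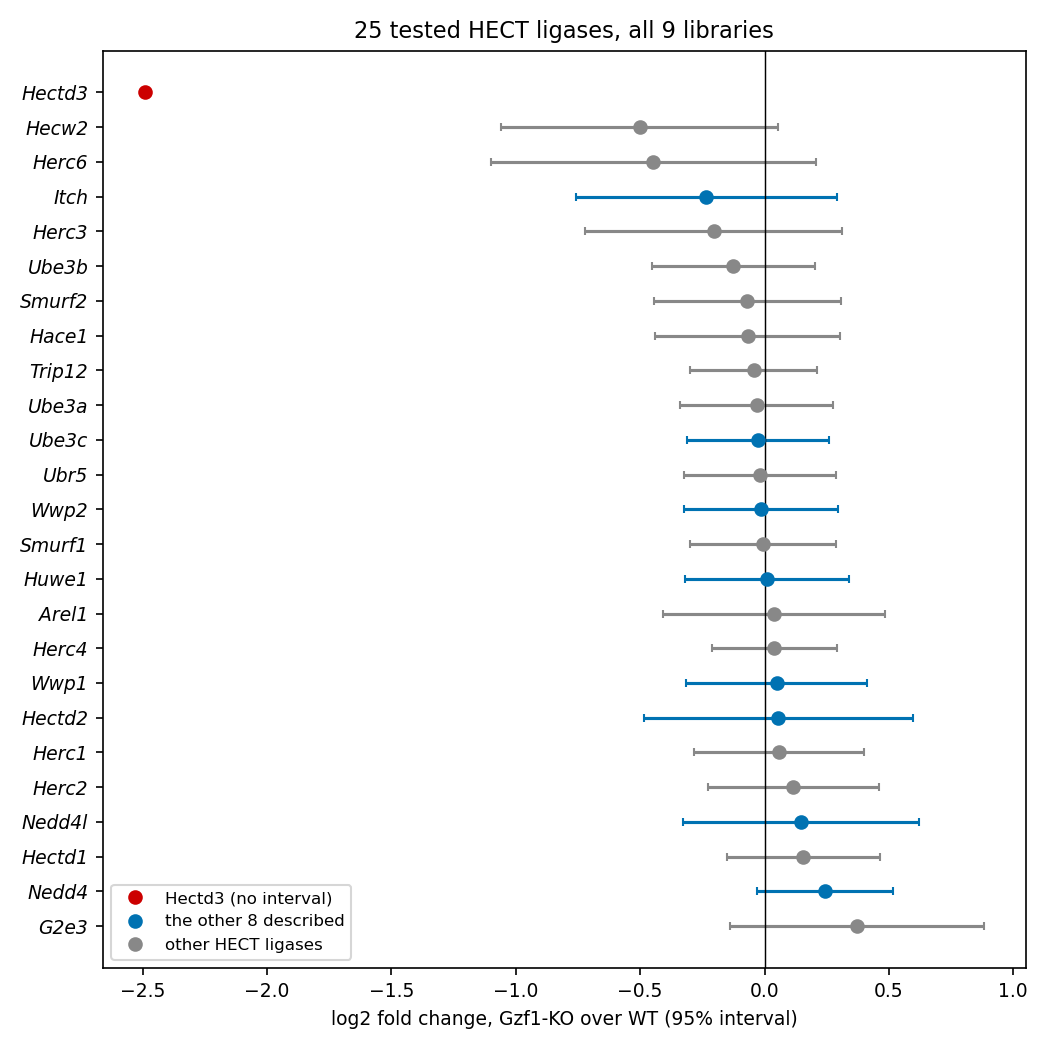
Log2 fold change of Gzf1-KO over WT (horizontal axis) for the 25 tested HECT ligases, with 95% intervals from the edgeR fit for all but Hectd3, which is drawn as a point. Hectd3 is at -2.49, and the other 24 lie between -0.50 and 0.37.

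Listed enzymes and proteins that work with these ligases were also measured between genotypes, where 0.0316% of all tested rows were called, so that counts of 0 are near the background. Of 10 E1 and E2 enzymes 0 passed in edgeR, with a median log2 fold change of 0.00. Uba1, the main ubiquitin E1, had 0.02 (SE 0.12) and Ube2l3, an E2 that serves HECT ligases, -0.05 (SE 0.12). Of 9 adaptors and regulators of the Nedd4 group 0 passed, with a median of 0.04. Arrdc4, an arrestin-like adaptor, had -0.21 (SE 0.14) and Arrdc2 0.58 (SE 0.29). Of 8 reported Hectd3 substrates 0 passed, with a median of -0.02, among them Stat3 at 0.02 (SE 0.14), Stx8 at -0.13 (SE 0.16) and Triobp at 0.17 (SE 0.20). Of 7 tested Huwe1 substrates 0 passed, with a median of 0.05, among them Trp53 at 0.05 (SE 0.17) and Mcl1 at 0.10 (SE 0.13). In each of these 4 lists 0 genes had an unadjusted p under 0.05 in edgeR, DESeq2 called 0 and limma voom called 0, and every adjusted p was 0.9998. Substrates of a ligase are controlled as proteins, which these counts do not measure.

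The genes next to Hectd3 were examined for the same difference. Within 200 kb, 12 genes had a tested row, and 0 passed in edgeR, DESeq2 or limma voom, near the background of 0.0316% called in edgeR, with a median log2 fold change of -0.01 and a range of -0.20 to 0.32. In edgeR 1 of the 12 had an unadjusted p under 0.05, as did 293 of all 12645 tested rows. That was Urod, the heme synthesis enzyme transcribed away from Hectd3 from 0.904 kb before its start. Urod was at 74.3, 71.8, 85.7, 74.6 and 95.6 CPM in knockout replicates 1 to 5 and at 56.1, 60.8, 63.9 and 79.2 CPM in wild-type replicates 1 to 4. Its log2 fold change was 0.29 (SE 0.13, adjusted p = 0.9998), with wild-type replicate 4 above 3 knockout libraries. On the other side Eif2b3, a subunit of a translation initiation factor that starts 14.1 kb after Hectd3, had -0.05 (SE 0.14). Zswim5, which ends 6.05 kb before it, had 0.07 (SE 0.33). Farther out, Btbd19 had -0.07 (SE 0.25), Plk3, a polo-like kinase, -0.00 (SE 0.21), and Kif2c, a mitotic motor, -0.00 (SE 0.12).

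**Figure D3:**
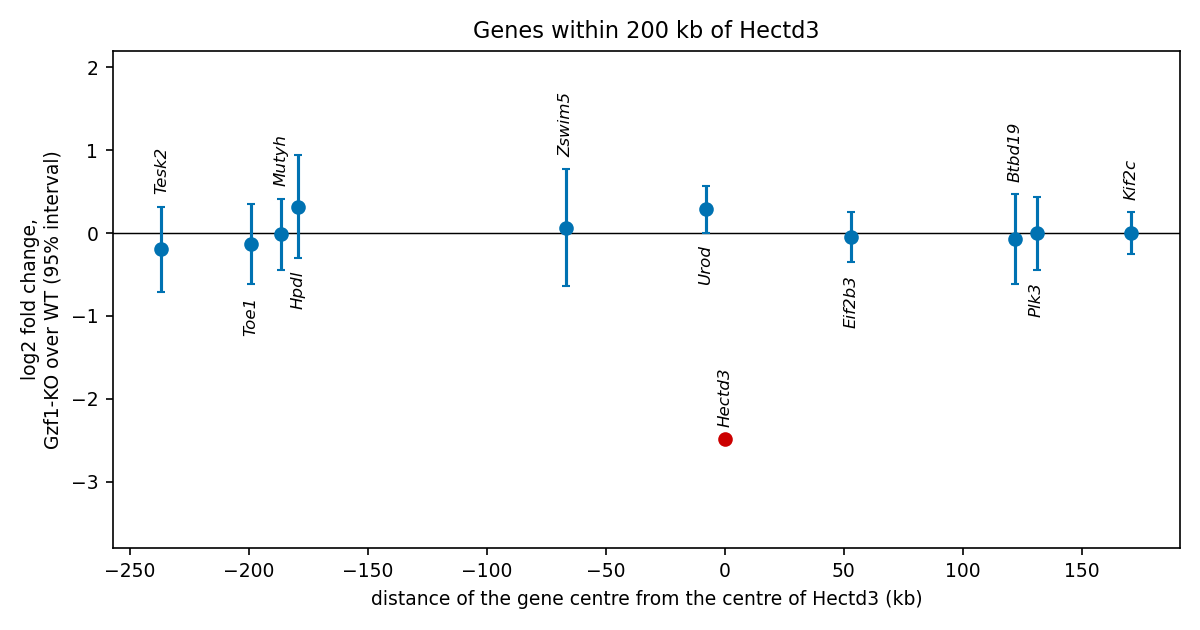
Log2 fold change of Gzf1-KO over WT (vertical axis) against distance from the centre of Hectd3 in kb (horizontal axis) for Hectd3 and 10 of the 12 tested genes with an end within 200 kb, plotted at their centres, with 95% intervals for all but Hectd3. Hectd3 stands at -2.49 and the plotted neighbours between -0.20 and 0.32.

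The genes whose profile over the 9 libraries was nearest to that of Hectd3 were Cd320, Dnajb12, Slc10a7, AK207688 and Rbmxl1. Nearness was the root mean square distance between mean-centred log2 CPM values, which was 0.56 for Cd320 and 0.77 for Rbmxl1, against a median of 1.31 over all tested rows. For the other 8 HECT ligases it ran from 1.21 for Itch to 1.52 for Huwe1. Cd320, the receptor for transcobalamin-bound vitamin B12, averaged 23.3 ± 3.58 CPM in knockout and 62.6 ± 7.11 CPM in wild-type libraries (SD, n = 5 and n = 4). Slc10a7, a membrane protein of the bile acid transporter family, averaged 8.02 ± 0.48 CPM in knockout and 18.8 ± 2.00 CPM in wild-type libraries. AK207688, a transcript with no further annotation in the table, averaged 23.6 ± 8.27 CPM in knockout and 52.3 ± 8.09 CPM in wild-type libraries. All 5 had lower means in the knockout, by less than Hectd3, with log2 fold changes of -1.44 for Cd320 to -1.15 for AK207688. The Hectd3 profile is mostly its difference between genotypes, so the shared direction follows from how the 5 were picked.

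Cell line was not used to choose the members, and here Huwe1 had the largest difference of the 9 in either genotype. RGM libraries were set against the run1 libraries (V6.5, with 1 Cas9-GFP library in the wild type) separately within knockout and within wild type. Run and line coincide in this comparison and cannot be told apart. Huwe1 was at 178 and 170 CPM in RGM knockout libraries, against 369, 462 and 288 CPM in V6.5 knockout libraries. In the wild type it was at 157 and 147 CPM in RGM libraries, against 480 CPM in V6.5 and 337 CPM in Cas9-GFP. All 4 RGM libraries were below all 5 run1 libraries. The log2 difference was -1.10 within knockout (SE 0.22, edgeR adjusted p = 0.0040) and -1.43 within wild type (SE 0.24, adjusted p = 0.0018). The call within wild type was kept in 13 of 13 alternatives, while that within knockout was lost without knockout replicate 2.

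Ube3c followed with a smaller difference. It was at 68.2 and 64.7 CPM in RGM knockout libraries, against 82.3, 85.4 and 103 CPM in V6.5 knockout libraries, and at 54.9 to 64.2 CPM in RGM wild-type libraries, against 99.2 CPM in V6.5 and 103 CPM in Cas9-GFP. The RGM and run1 values did not overlap. Ube3c was lower in RGM within wild type (log2 difference -0.76, SE 0.20, edgeR adjusted p = 0.016), while within knockout it had -0.44 (SE 0.18, adjusted p = 0.094). The call within wild type was lost when any 1 of the 4 wild-type libraries was left out.

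The members' calls by line were set against those of all tested rows. Within wild type 2 of 9 were called, both lower in RGM, a share of 22.2% where 24.4% of all tested rows were called. Within knockout 1 of 9 was called, 11.1% where 25% of all tested rows were. Values of 2 members, Huwe1 and Ube3c, did not overlap between RGM and run1, as for 38.6% of all tested rows. Both were below in RGM, as 19.2% of rows were, while 19.4% were above. Hectd3 had a log2 difference of 0.16 within knockout (interval -0.66 to 0.99) and 0.10 within wild type (interval -0.60 to 0.81), so that neither a rise nor a fall by line was detected at this depth. Hectd2 had 0.25 within knockout and 0.13 within wild type, Nedd4 -0.04 and 0.15, Itch 0.05 and -0.04, Wwp1 -0.09 and -0.33, Wwp2 -0.22 and -0.23, and Nedd4l 0.07 and 0.38, none past the threshold.

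Huwe1 is on chromosome X (151800807 to 151935417, plus strand, GRCm38), the 1 X-linked gene among the 25 tested HECT ligases. Of 423 tested X-linked rows 39.5% were lower and 3.07% higher in RGM within wild type, with a median log2 difference of -0.78, against 11.3% lower and 12.3% higher and a median of 0.01 over 11645 autosomal rows. Within knockout 32.9% of X-linked rows were lower, with a median of -0.62, against 11.6% lower on autosomes. Of the X-linked rows, 83 had a lower value than Huwe1 within wild type and 99 within knockout. Uba1, also X-linked, was lower in RGM, with -0.52 within knockout (SE 0.16, adjusted p = 0.028) and -0.82 within wild type (SE 0.17, adjusted p = 0.0051). The part of the chromosome in the values of Huwe1 and Uba1 was not tested. Of 14 tested fibroblast markers 9 were higher in RGM within either genotype and 0 lower in edgeR. Of all tested rows 12.6% were higher within knockout and 12.1% within wild type. Within wild type DESeq2 called 9 markers higher and 1 lower, and limma voom 11 higher and 1 lower. They called 3022 and 4868 of 12645 rows there. The lower marker was Twist1, with an edgeR log2 difference of -1.06 within wild type (adjusted p = 0.058) and -0.64 within knockout (adjusted p = 0.19). The part of the fibroblast markers was not tested either. Of the 12 stem cell markers 5 were called by line within either genotype, 2 higher and 3 lower in RGM, where 25% of all tested rows were called within knockout and 24.4% within wild type, and their part was likewise not tested.

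Of the 16 other HECT ligases 5 were called by line within knockout (3 higher, 2 lower), a share of 31.2% against 25% of all tested rows. Within wild type 3 were called (2 higher, 1 lower), a share of 18.8% against 24.4% of all tested rows, so the class is not set apart by these counts. Ube3a, the ligase lost in Angelman syndrome, was lower in RGM by a log2 difference of -0.995 within knockout (SE 0.21, adjusted p = 0.0052) and -1.22 within wild type (SE 0.22, adjusted p = 0.0029). It had 49.6 and 51.3 CPM in RGM knockout libraries, against 111, 105 and 85.6 CPM in V6.5 knockout libraries. Hecw2, a Nedd4-group ligase, was higher in RGM by 1.68 within knockout (SE 0.37, adjusted p = 0.0071) and 1.39 within wild type (SE 0.40, adjusted p = 0.024). Herc6, whose mouse product conjugates the interferon-induced modifier Isg15, was higher by 2.11 within knockout (SE 0.42, adjusted p = 0.0040) and 1.43 within wild type (SE 0.44, adjusted p = 0.033), at 1.25 to 1.80 CPM in V6.5 knockout libraries. Within wild type the 3 calls fell to 1 or 0 without wild-type replicate 1, 2 or 3, with Ube3a, Hecw2 and Herc6 all lost without replicate 2. DESeq2 did not call Herc6 within wild type. Trip12 had -0.39 within knockout and -0.46 within wild type, neither past the threshold.

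**Figure D4:**
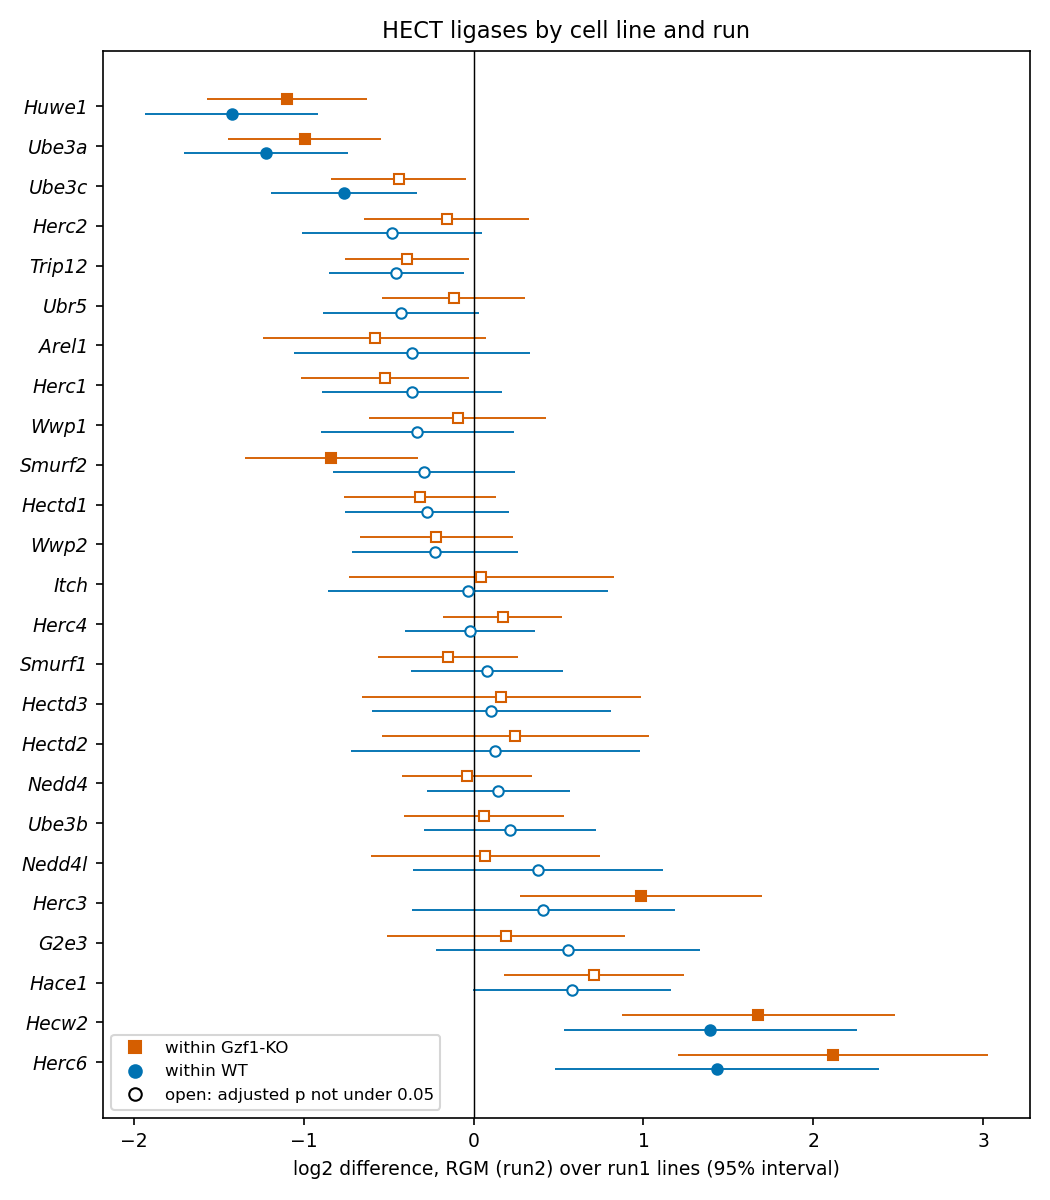
Log2 difference of RGM (run2) over the run1 lines (horizontal axis) for the 25 tested HECT ligases, within Gzf1-KO (squares) and within WT (circles), with 95% intervals; filled symbols have an adjusted p under 0.05. Huwe1 is lowest at -1.10 within Gzf1-KO and -1.43 within WT, and Herc6 highest at 2.11 and 1.43.

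Partners of the ligases are described for the same comparison, in which 25% of all tested rows were called within knockout and 24.4% within wild type. Nothing particular to a list is read from its count. Of the 9 Nedd4-group adaptors and regulators 5 were called within knockout (2 higher, 3 lower) and 4 within wild type (2 higher, 2 lower). Pmepa1, a membrane protein that binds Nedd4, had a log2 difference of -1.08 within knockout (SE 0.20, adjusted p = 0.0028) and -1.31 within wild type (SE 0.22, adjusted p = 0.0018). N4bp1, an Itch inhibitor, had -1.08 within knockout (SE 0.18, adjusted p = 0.0016) and -1.02 within wild type (SE 0.19, adjusted p = 0.0035). Arrdc4 was higher in RGM, by 0.83 within knockout (SE 0.19, adjusted p = 0.0075) and 1.06 within wild type (SE 0.21, adjusted p = 0.0039). Arrdc2 was higher within wild type (1.60, SE 0.42, adjusted p = 0.016), with 0.74 (adjusted p = 0.16) within knockout. The difference between these values did not pass (-0.86, SE 0.56, adjusted p = 0.99996). Ube2l3 was higher, by 0.71 within knockout (SE 0.17, adjusted p = 0.0097) and 0.61 within wild type (SE 0.18, adjusted p = 0.030), while Ube2d3 and Ube2e1 were not called. Of the 10 E1 and E2 enzymes 5 were called within knockout (3 higher, 2 lower) and 2 within wild type, Uba1 and Ube2l3. Of the 7 Huwe1 substrates 4 were called within knockout (3 higher, 1 lower) and 1 within wild type. Mycn, the N-Myc gene, was higher in RGM by 1.53 within knockout (SE 0.22, adjusted p = 0.00053) and 1.26 within wild type (SE 0.24, adjusted p = 0.0036). Polb, a DNA repair polymerase, had 0.22 within knockout and 0.62 within wild type, and Mcl1 0.03 and 0.13, none past the threshold. Of the 8 reported Hectd3 substrates 2 were called within knockout in edgeR. These were Casp9, an initiator caspase (1.44, SE 0.32, adjusted p = 0.0075), and Casp8 (-1.15, SE 0.39, adjusted p = 0.049), both picked out after their values were seen. DESeq2 called Casp9 and Triobp within knockout but not Casp8, where it called 3107 of 12645 rows. Limma voom called 2 higher and 2 lower within knockout, Casp8 and Casp9 among them, where it called 3854 rows. Of the same 8, 0 were called within wild type in edgeR and in DESeq2. Limma voom called 2 of them within wild type, where it called 4868 of all 12645 tested rows. In edgeR 2 had an unadjusted p under 0.05 within wild type, as did 4881 of all tested rows.

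The members also varied by different amounts among libraries of the same genotype and run. On the log2 CPM scale (prior count 2) this SD was 0.10 for Hectd2 and 0.14 for Ube3c, against a median of 0.29 over all tested rows. It was 0.20 for Nedd4 and Wwp2, 0.27 for Huwe1 and Wwp1, 0.34 for Hectd3, 0.41 for Nedd4l and 0.42 for Itch. Hectd2 held only 14 to 38 counts per library, and the prior count narrows such values, so its low SD is not read as a steadier level. For Nedd4l the high library was knockout replicate 4, at 56.0 CPM against 28.1 and 28.2 CPM in the other V6.5 knockout libraries.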

How the data were processed

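The authors deposited 1 table of raw counts per gene symbol for 9 libraries, whole numbers with a different total per library. Per the submitters' processing notes, STAR, DESeq2 and mm10 were used. For the counter, annotation, strand and molecular identifiers the sources used here give nothing, so the counts may not be independent molecules. The floor covers counting error only. Of 30324 rows, 92 synthetic spike-in rows (1 with a count) were left out, and 1858 rows merge several symbols. Genotype, line and run came from the labels, which do not say whether libraries are separate cultures. The p-values and intervals therefore measure the spread between these libraries. No pair of libraries of a genotype and run agreed within sampling noise (chi-square per degree of freedom 2.63 to 26).

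Rows were kept with filterByExpr (minimum count 10), leaving 12645, and 9 of 9 members passed. Counts were scaled by TMM and tested with the robust quasi-likelihood test of edgeR 4.0.16 (R 4.3.3), with run and genotype as terms, or as contrasts of 4 groups (genotype by run). P-values were adjusted over all tested rows by Benjamini-Hochberg, threshold 0.05, and unless another tool is named they come from edgeR. SE is the absolute log2 fold change over the square root of F, and intervals are 95% per gene. DESeq2 1.42.0 and limma 3.58.1 were alternatives. The scripts were tested on simulated data, where a larger share of calls than the nominal threshold was false, more so for lines within wild type than for genotype. There 50.0% of 2-fold and 95.7% of 4-fold differences by genotype were recovered. By line within wild type 31.9% and 78.0% were. A gene not called may therefore still differ by 2-fold. Positions are from GENCODE M21 (GRCm38) and promoters from RefSeq (GRCm38.p6). The members and gene lists were chosen with earlier results of these data known. Named genes were Gzf1, the 9 members, up to 4 of each other list (called by genotype or by line within wild type first, then the most highly expressed), up to 8 tested genes nearest to Hectd3, and the 5 nearest profiles. G2e3, Lum, Twist1, Casp8 and Casp9 were named after their values were seen. Single values of 3 genes that the rule names are not reported here.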

Additional observations from a re-analysis of the deposited data

Results flagged for a closer look

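Nedd4 in wild-type replicate 4, the Cas9-GFP library, was at 760 CPM, apart from the other 3 wild-type libraries at 899 to 924 CPM. Its gap to the nearest of them was 0.847 of the range of the 4. Chance alone flags about 1 in 20 groups, and 18 groups (9 genes by 2 genotypes) were examined.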

How the results depend on the processing

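Hectd3 was chosen on the genotype contrast, so its values here describe and support nothing. Its calls are therefore not counted. The log2 fold change of Hectd3 was -2.52 in run1 libraries alone and ran from -2.60 to -2.35 over 18 alternatives. The other 8 members were not called between genotypes in any of these 18. In the contrast within RGM of the fit to all libraries, 0 members and 0 rows in all were called by edgeR (104 rows had an unadjusted p under 0.05), while DESeq2 called 2 rows and limma voom 4. The counts of other HECT ligases and of neighbours of Hectd3 were 0 in all 18. The fit with replicate number as a block (replicate block) gave 0 other ligases and 0 neighbours, the counts without the block, and called 6 rows in all against 4. With the block, 571 rows had an unadjusted p under 0.05 in edgeR, against 293 without it. Same-numbered libraries had correlations of their deviations of -0.065, -0.065, 0.30 and 0.33 for numbers 1 to 4. Numbers 1 and 2 repeat a single value, because deviations within a group of 2 libraries mirror each other. Of 8 libraries, 4 correlated best with their own number. Whether same-numbered libraries share more than a number cannot be told from these values. Over all rows the genotype comparison called 35 without the low-count filter, 7 in DESeq2, 10 in limma voom, 9 in RGM alone, 1 in run1 alone, 2 without the run term, 2 with cell line in its place, and 2 to 4 with 1 library left out. By line, leaving out 1 library gave 1 to 2 members within wild type, 0 to 1 within knockout, and 0 to 4 other ligases within wild type; the cause was not tested beyond the loss of a sample. Ube3c lost its call in 4 such fits (log2 difference -0.89 to -0.64). Other scalings moved the median of all rows by no more than 0.01. Counts of 11 to 38 limit what Hectd3 in the knockout can show.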
